A study of Homo sapiens with 8 samples.

Results

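RVX-208 was compared with its vehicle at 4 h in HepG2, a human hepatoma line that keeps many hepatocyte functions. The comparison uses 6 of the 8 arrays: 3 of cells given RVX-208 at 5000 nM and 3 of cells given DMSO, both with DMSO at a final 0.1%. RVX-208 replicate 3 carries no label for the agent, and its title gives its group. The other 2 arrays are of cells given JQ1 at 500 nM in the same DMSO concentration; they share in the estimate of the spread, and a further JQ1 array that the study planned is not analysed here. The members are all 17845 genes with a probe set of their own on the Affymetrix Human Gene 1.0 ST array, and each difference is the RVX-208 mean minus the DMSO mean on the log2 scale. HepG2 is 1 cell line, nothing in the labels tells if the replicates came from different cultures, so p-values measure only the spread between these samples. Precision is limited by how few arrays there are, and in RNA from whole cultures fewer cells of a kind and less RNA per cell cannot be told apart.

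RVX-208 (apabetalone) is an inhibitor of the BET proteins that binds their second bromodomain more tightly than the first. BET proteins read acetylated histones and help bring the elongation kinase P-TEFb to promoters; HEXIM1, which holds P-TEFb in an inactive complex, is a common readout of BET inhibition. The compound was developed because it raised apolipoprotein A-I, the main protein of HDL, in hepatoma cells. JQ1 binds both bromodomains about equally and served as the other inhibitor of the study.

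The arrays were alike in overall level, with median log2 signals of 7.265 to 7.31, and arrays of 1 group had correlations of 0.9962 to 0.9973 over probe sets. Of 11 hepatocyte lineage markers tested, 10 had a mean log2 signal of at least 8, and the mean of the list was 11.39 to 11.43 in RVX-208 arrays and 11.38 to 11.40 in DMSO arrays. Of 10 fibroblast markers 0 reached that level, and the list averaged 5.22 to 5.33 in RVX-208 arrays and 5.44 to 5.45 in DMSO arrays. The 10 blood cell markers averaged 6.82 to 6.91 in RVX-208 arrays and 6.90 to 6.98 in DMSO arrays, with LYZ at 13.24. The 8 endothelial markers averaged 5.72 to 5.84 in RVX-208 arrays and 5.91 to 5.93 in DMSO arrays. In each of these last 3 lists 5 members had a mean under 6, within the dim range in which RVX-208 arrays read lower across all genes, as set out next. In these marker lists limma called PDGFRB and STAB2, both lower and neither after cyclic loess, and 0 of the 11 hepatocyte markers (1 was higher and 1 lower at an unadjusted p under 0.05).

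Against DMSO, 1120 genes (6.28% of those tested) passed an adjusted p under 0.05 and are called here, 546 of them higher (3.06%) and 574 lower (3.22%). The changes were small. The median absolute log2 fold change of all genes was 0.10, 38 called genes changed at least 1.5-fold (24 higher and 14 lower), and 2 changed at least 2-fold, CYP1A1 upwards and the noncoding RNA LINC00652 downwards. All RVX-208 arrays lay beyond all DMSO arrays for 34.1% of genes, so that lack of overlap alone marks little.

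The difference between the groups ran with signal. In 10 equal bins of mean log2 signal, the median fold change was lowest in the fourth bin (5.99 to 6.65) at -0.12 and highest in the eighth (8.71 to 9.42) at 0.04. Calls followed it: 34 higher and 108 lower in the fourth bin, against 108 higher and 46 lower in the eighth. The departure was graded over single arrays. In the fourth bin the median deviation from the mean of all arrays was -0.025, -0.045 and -0.073 in RVX-208 replicates 1 to 3, and 0.023, 0.058 and 0.106 in DMSO replicates 1 to 3. The extremes were RVX-208 replicate 3 and DMSO replicate 3, and the 2 JQ1 arrays, at -0.004 and -0.024, lay between the groups.

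**Figure D1:**
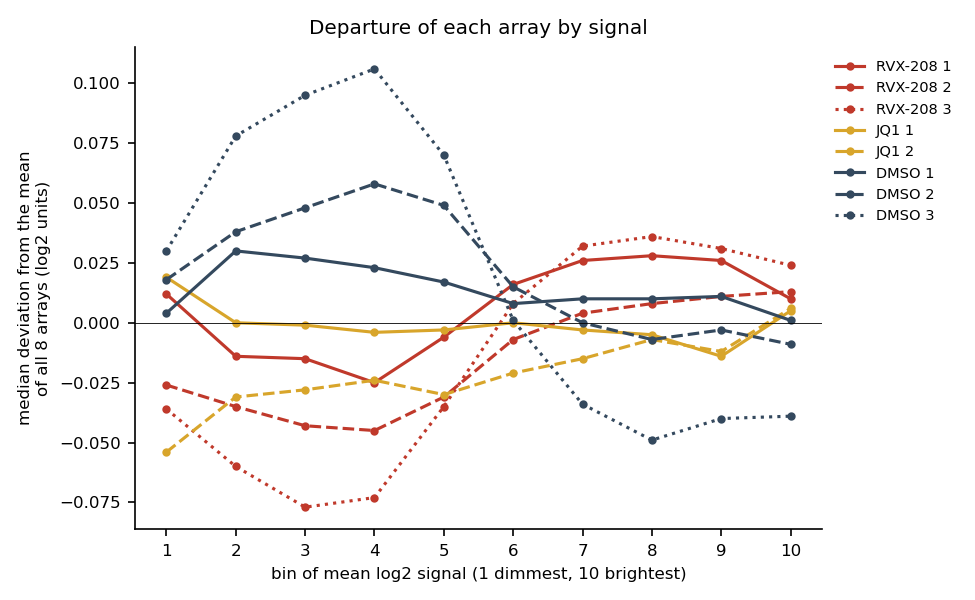
Median deviation of each array from the mean of all 8 arrays (log2 units, y axis) in 10 bins of mean signal from dim to bright (x axis), with RVX-208 in red, JQ1 in yellow and DMSO in dark blue. DMSO replicate 3 rises to 0.106 and RVX-208 replicate 3 falls to -0.077 in the dim bins, and their order turns in the bright bins.

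Cyclic loess, which removes such a dependence on signal between arrays, brought the bin medians to between -0.023 and 0.015. It then called 905 genes (5.07%), 524 higher (2.94%) and 381 lower (2.14%), and 731 (4.10%) were called in the same direction on both scales. Centring on 10 housekeeping genes moved the split further, to 306 higher (1.71%) and 3018 lower (16.9%), and the median of all genes to -0.115. On the deposited values limma called 0 of these 10 (2 were higher and 0 lower at an unadjusted p under 0.05), and their median was 0.08. Their median signal was 11.17, in the brightest bin (10.29 to 13.87), where the median fold change of all genes was 0.03. Whether the departure is a property of the arrays or of RNA from treated cells was not tested. Counts of calls below are on the deposited values; for genes named with a call, the text says where cyclic loess loses it.

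**Figure D2:**
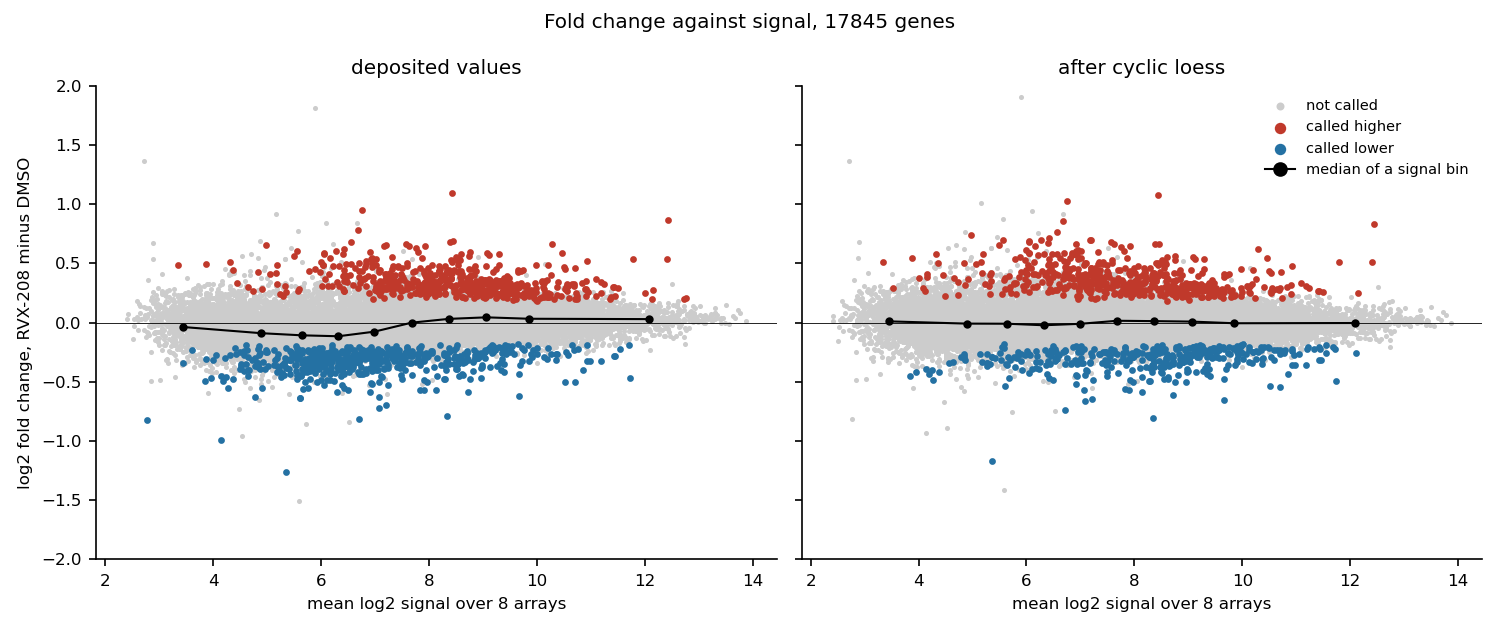
Log2 fold change, RVX-208 minus DMSO (y axis), against mean log2 signal (x axis) for 17845 genes, on the deposited values (left) and after cyclic loess (right). Red points are called higher and blue points lower; the black line of bin medians dips to -0.116 on the left and stays between -0.023 and 0.015 on the right.

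The count of calls also depended on single arrays. Leaving out 1 RVX-208 array gave 52 calls where it was replicate 3, 151 where it was replicate 2 and 291 where it was replicate 1. Leaving out 1 DMSO array gave 81 calls for replicate 3, 310 for replicate 2 and 705 for replicate 1. Dropping either JQ1 array gave 756, the same as a fit of the 6 compared arrays alone, since a lone JQ1 array adds nothing to the spread. Of the genes called on all arrays, 46 (30 higher and 16 lower) stayed called in each of these fits, after cyclic loess and in 4 other fits; they are termed steady here. Of the 46, 32 also stayed called in each fit that left out an array after cyclic loess. HEXIM1, ASF1B and SH3TC2 kept their call in 7 of 8 such fits, SGK1 and AIPL1 in 6 and CCR6 in 4. For most other genes with a call, the text gives how many of the 6 fits without an RVX-208 or DMSO array, on the deposited values, kept it. Such a fit has fewer arrays and fewer degrees of freedom, and its adjustment runs over all genes. A lost call therefore need not mean that the estimate of the gene moved.

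**Figure D3:**
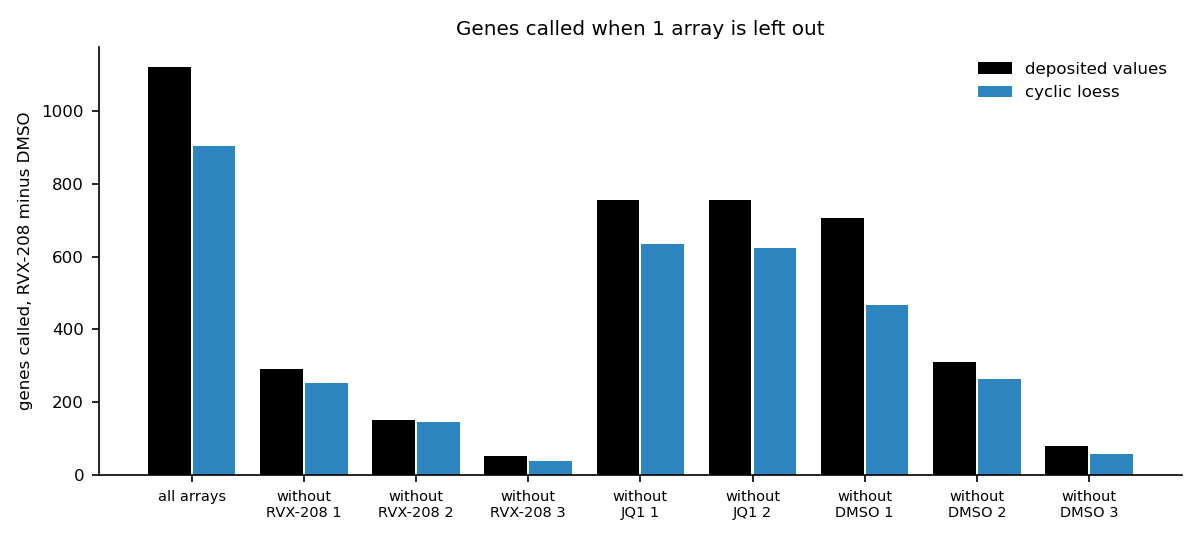
Genes called for RVX-208 minus DMSO (y axis) with all arrays and with each array left out in turn (x axis), on the deposited values (black) and after cyclic loess (blue). The lowest bars, at 52 and 39 genes, are those without RVX-208 replicate 3.

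CYP1A1, the aryl hydrocarbon receptor (AHR) target that oxidises polycyclic aromatic compounds, had the largest rise among the genes called on both scales. Its log2 signal was 9.28, 9.45 and 9.53 in RVX-208 arrays, against 8.36, 8.23 and 8.37 in DMSO arrays. The groups were well apart, and the rise was 1.10 ± 0.09 log2 units (SE, n = 3 each; 95% confidence interval 0.90 to 1.30), or 2.14-fold, with an adjusted p of 0.00677 by limma. JQ1 moved it the other way: the JQ1 arrays read 6.97 and 7.23, and JQ1 minus DMSO was -1.22 ± 0.10 (adjusted p = 1.09e-04, in a comparison that called 22.8% of genes). The compounds differed by 2.32 ± 0.10 (RVX-208 minus JQ1, adjusted p = 4.18e-05), at doses that also differed.

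Of 13 listed AHR genes 10 were tested (2 had shared probe sets and 1 is not analysed here), and CYP1A1 alone was called (3 were higher and 0 lower at an unadjusted p under 0.05). TIPARP, which represses the receptor, came nearest at 0.23 ± 0.07 (adjusted p = 0.0664). NQO1, a quinone reductase, gave 0.12 ± 0.04 (adjusted p = 0.115), and the receptor AHR itself gave -0.10. CYP1A2 (-0.01) and CYP1B1 (-0.03) were dim, with mean log2 signals of 6.45 and 4.56. The list's median was 0.01, beside -0.02 over all genes, and became -0.08 with housekeeping centring, beside -0.115 over all genes. The window of the CYP1A1 promoter is shown because the receptor binds the core GCGTG, in capitals; it is RefSeq sequence of GRCh38.p14, chr15:74725509-74725658, minus strand, from 130 bases before to 20 after the start.
CYP1A1: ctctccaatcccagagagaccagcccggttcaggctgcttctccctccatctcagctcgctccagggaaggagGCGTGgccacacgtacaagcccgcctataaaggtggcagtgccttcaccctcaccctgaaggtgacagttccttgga
In windows from 250 bases before to 50 after the start, GCGTG or its reverse complement CACGC stood in 6 of the 8 matched promoters of tested AHR genes (75.0%). It stood in 44.7% of the 13864 promoters of genes tested and in 36.3% of all 27305 promoters, so the match is common.

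Of 8 genes listed as rising under BET inhibition in other cells, 5 were called higher and 0 lower, beside 3.06% and 3.22% of all genes, with a median of 0.46. The list was written with earlier results of these data known and is no independent evidence of the direction. HEXIM1 was steady, at 10.16, 10.09 and 10.14 in RVX-208 arrays, against 9.68, 9.61 and 9.65 in DMSO arrays, a rise of 0.48 ± 0.05 (adjusted p = 0.00677). TXNIP, which binds thioredoxin and limits glucose uptake, was steady at 11.83, 11.67 and 11.73 in RVX-208 arrays, against 11.25, 11.20 and 11.17 in DMSO arrays. Its rise was 0.54 ± 0.06, and that of ARRDC4, the other of 5 arrestin-domain genes to be called, was 0.44 ± 0.07 (kept in 2 of 6 fits, adjusted p up to 0.0823). The other 2 called were the histone genes H2BC12 and H2BC21. SERPINI1 gave 0.38 ± 0.15 (adjusted p = 0.140), and its arrays overlapped, at 7.53, 7.56 and 7.77 in RVX-208 arrays and 7.59, 7.21 and 6.93 in DMSO arrays.

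Of 8 genes listed as falling under BET inhibition, MYC alone was called, and 3 were lower and 0 higher at an unadjusted p under 0.05; 5 of the 8 had a mean log2 signal of at least 6, beside 8 of the 8 listed as rising. The MYC signal was 10.78, 10.85 and 10.78 in RVX-208 arrays, against 11.02, 11.03 and 11.03 in DMSO arrays. The groups did not overlap, but the fall of 0.22 ± 0.05 log2 units passed narrowly (adjusted p = 0.0482) and was kept in 0 of 6 fits (adjusted p up to 0.153). MXD1, which competes with MYC for its partner MAX, rose by 0.31 ± 0.06 (adjusted p = 0.0271, kept in 1 of 6 fits). Among 13 genes of the MYC and MAX network these 2 were the ones called. In ribosome biogenesis, a process that MYC drives, 1 of 22 tested genes was called (4.55%, beside 6.28% of all genes), NOP16 at -0.28 ± 0.05 (kept in 0 of 6 fits), and 13 had all RVX-208 arrays below all DMSO arrays (59.1%, beside 18.5% of all genes). The median of the 22 was -0.06, at a median signal of 10.35, in the bright range where RVX-208 arrays read higher across all genes. After cyclic loess the median was -0.10, and 4 were called lower and 0 higher, beside 2.14% and 2.94% of all genes.

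Of 20 tested genes of the BET proteins and the elongation machinery, 4 were called higher and 0 lower on the deposited values, beside 3.06% and 3.22% of all genes. Besides HEXIM1 these were BRD2, a BET protein, at 0.33 ± 0.06 (adjusted p = 0.0278, kept in 1 of 6 fits), and the P-TEFb cyclins CCNT1 at 0.30 ± 0.06 and CCNT2 at 0.30 ± 0.07. CCNT1 was kept in 1 of 6 fits and CCNT2 in 0 of 6; CCNT2 was not called after cyclic loess. BRD2 read 10.68, 10.62 and 10.63 in RVX-208 arrays, against 10.20, 10.37 and 10.38 in DMSO arrays. The BET gene BRD3 gave -0.08 ± 0.05 (adjusted p = 0.312) and the kinase CDK9 gave 0.11 ± 0.04 (adjusted p = 0.141). The list's median of 0.05 became -0.04 with housekeeping centring, beside -0.115 over all genes on that scale. There 2 were called higher (HEXIM1 and BRD2) and 2 lower (HEXIM2 and NELFA), beside 1.71% and 16.9% of all genes.

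Many histone genes rose. Of 69 listed genes 56 were tested (10 had shared probe sets and 3 are not analysed here), and 18 were called higher and 0 lower, beside 3.06% and 3.22% of all genes. The median was 0.16, and 0.07 with housekeeping centring, beside -0.115 over all genes on that scale. There 13 were called higher and 2 lower, beside 1.71% and 16.9% of all genes. By class, 7 of 14 H2B genes, 5 of 18 H2A genes, 3 of 9 H4 genes, 2 of 9 H3 genes and 1 of 6 H1 genes were called higher. After cyclic loess 17 histone genes were called higher and 0 lower, and H1-2, H3C7 and H4C3 had lost their call. Coding sequences within a class are nearly identical, so probe sets may read neighbours of the same class and single gene assignments are uncertain.

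Among H2B genes, H2BC4 was steady, at 9.27, 9.22 and 9.24 in RVX-208 arrays, against 8.66, 8.74 and 8.55 in DMSO arrays, a rise of 0.59 ± 0.06 (1.5-fold; adjusted p = 0.00677). H2BC12 had the largest estimate of the class, 0.66 ± 0.12, with 7.30, 7.82 and 7.66 in RVX-208 arrays, against 7.04, 6.85 and 6.89 in DMSO arrays; it was kept in 2 of 6 fits (adjusted p up to 0.0892). H2BC5 rose by 0.63 ± 0.11 and H2BC21 by 0.53 ± 0.08, each kept in 3 of 6 fits. H2BC14 had an estimate of the other sign that did not pass the test, at 12.73, 12.79 and 12.77 in RVX-208 arrays, against 13.01, 12.92 and 12.90 in DMSO arrays (-0.18 ± 0.05, adjusted p = 0.0738; it was called lower with housekeeping centring). In the H2A class the largest rise was that of H2AC17, at 0.65 ± 0.12 (kept in 1 of 6 fits).

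H2B promoters carry the octamer element, which the transcription factor POU2F1 binds, and windows of 3 called genes and of H2BC14 are shown so that the element can be seen in genes on either side of the test. They are RefSeq sequence of GRCh38.p14 from 130 bases before to 20 after the start, with TTTGCAT, part of the octamer, in capitals: H2BC4 at chr6:26123907-26124056 (minus strand), H2BC12 at chr6:27146839-27146988 (minus), H2BC21 at chr1:149886663-149886812 (minus) and H2BC14 at chr6:27814892-27815041 (plus).
H2BC4: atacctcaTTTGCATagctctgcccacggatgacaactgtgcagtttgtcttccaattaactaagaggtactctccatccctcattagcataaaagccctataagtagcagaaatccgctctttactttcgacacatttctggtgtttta
H2BC12: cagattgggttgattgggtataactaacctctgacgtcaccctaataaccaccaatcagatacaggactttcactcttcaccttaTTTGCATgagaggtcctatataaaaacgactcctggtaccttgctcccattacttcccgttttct
H2BC21: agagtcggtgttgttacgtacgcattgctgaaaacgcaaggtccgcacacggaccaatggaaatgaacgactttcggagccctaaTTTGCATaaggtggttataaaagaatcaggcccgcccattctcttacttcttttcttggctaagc
H2BC14: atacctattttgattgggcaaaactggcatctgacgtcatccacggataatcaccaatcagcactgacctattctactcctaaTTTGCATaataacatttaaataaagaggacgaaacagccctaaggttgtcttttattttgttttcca
TTTGCAT or its reverse complement ATGCAAA stood in 12 of 14 matched H2B promoters (85.7%), in 6 of the 7 of called genes and 6 of the 7 of genes not called. It stood in 3.69% of the 13864 promoters of genes tested and in 4.51% of all 27305 promoters.

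**Figure D4:**
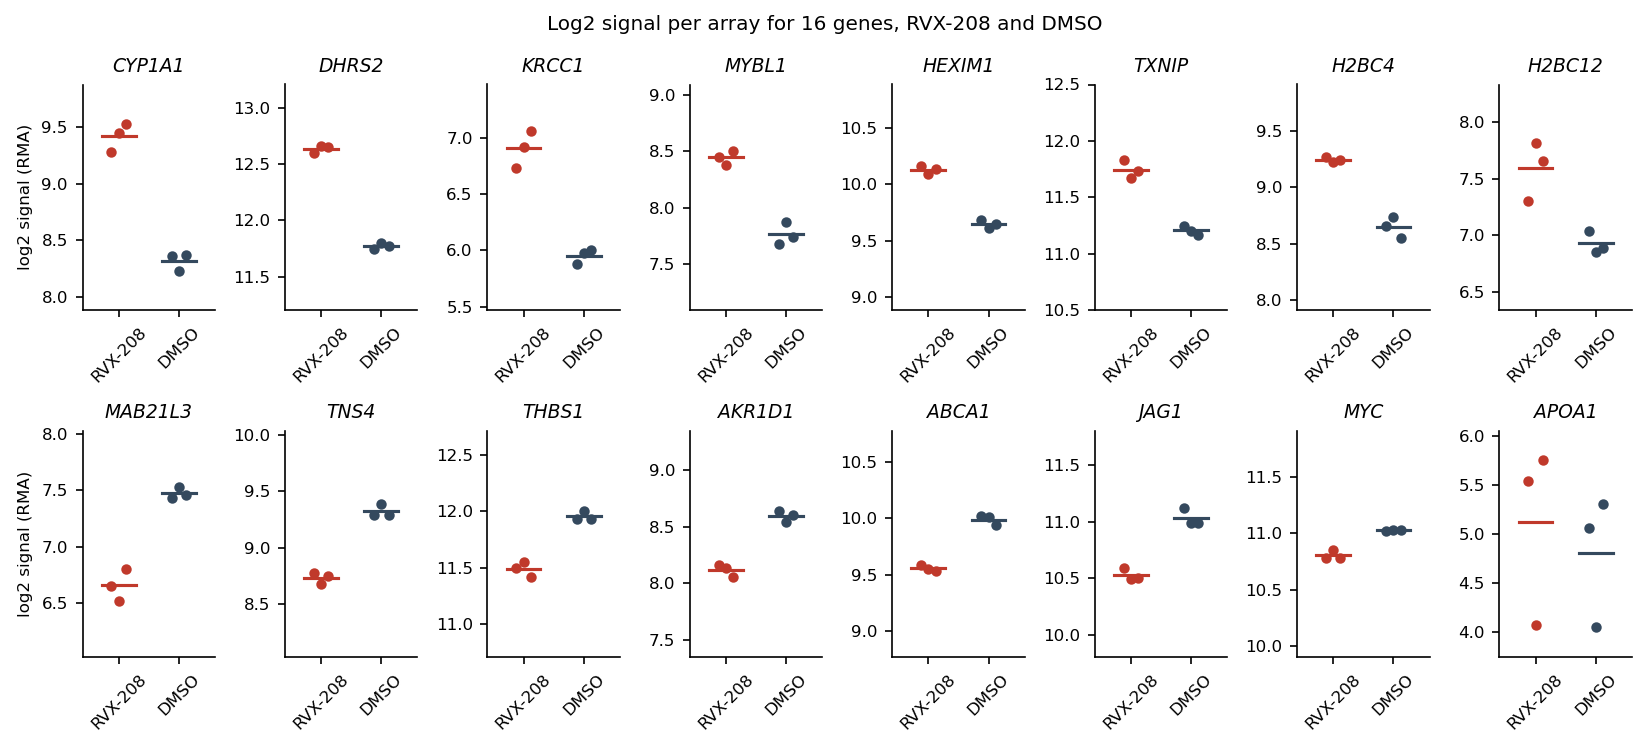
Log2 signal (RMA) of 16 genes in the 3 RVX-208 arrays (red, left) and the 3 DMSO arrays (dark blue, right), with the group mean as a bar; each panel has its own axis of at least 2 log2 units. CYP1A1 and DHRS2 are far apart between groups, MYC is narrowly apart and APOA1 overlaps.

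APOA1, the gene for which the compound was developed, could not be judged at 4 h. Its probe set was dim and variable, at 5.54, 4.07 and 5.75 in RVX-208 arrays, and 5.06, 4.05 and 5.31 in DMSO arrays. Replicate 2 was the lowest in both groups, and the groups overlapped. The estimate was 0.32 ± 0.51 (95% confidence interval -0.86 to 1.49, adjusted p = 0.716), and without DMSO replicate 2 it was -0.06. Among other plasma apolipoproteins, the bright APOB and APOE were close to 0, at -0.001 ± 0.05 and 0.01 ± 0.06. APOA2 gave 0.15 ± 0.05 and did not pass the limma test (adjusted p = 0.116). Of 17 tested genes of apolipoproteins and HDL handling, 2 were higher and 2 lower at an unadjusted limma p under 0.05. ABCA1, the transporter that loads cholesterol onto apolipoprotein A-I, was the one called (5.88%, beside 6.28% of all genes). It read 9.59, 9.55 and 9.53 in RVX-208 arrays, against 10.02, 10.01 and 9.94 in DMSO arrays, a fall of 0.44 ± 0.06 log2 units (adjusted p = 0.0115). The call was kept in 5 of 6 fits and lost without RVX-208 replicate 3 (adjusted p = 0.0638).

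Of 22 tested genes of cholesterol synthesis and uptake (5 of the 28 listed are not analysed here, and 1 had a shared probe set), 5 were called higher and 0 lower, beside 3.06% and 3.22% of all genes, and 12 had all RVX-208 arrays above all DMSO arrays (54.5%, beside 15.6% of all genes). The median was 0.14 (0.12 after cyclic loess, where 3 were called higher and 0 lower), and 0.05 with housekeeping centring, beside -0.115 over all genes. With that centring 3 were called higher and 1 lower, beside 1.71% and 16.9% of all genes. The list had a median signal of 9.39, in the bright range where RVX-208 arrays read higher across all genes. IDI1, the isopentenyl diphosphate isomerase, read 10.57, 10.64 and 10.55 in RVX-208 arrays, against 10.20, 10.20 and 10.00 in DMSO arrays, a rise of 0.45 ± 0.07 (adjusted p = 0.0171, lost without RVX-208 replicate 2 or 3). The sterol oxidase MSMO1 rose by 0.34 ± 0.06 (kept in 1 of 6 fits), and the sterol carrier STARD4 by 0.34 ± 0.08 (kept in 0 of 6). SC5D and TM7SF2, at 0.30 and 0.24, were not called after cyclic loess, and SQLE gave 0.16 ± 0.05 (adjusted p = 0.106). Of 23 tested genes of fatty acid and triglyceride metabolism, 2 were called (8.70%, beside 6.28% of all genes), both lower: GPAM, which starts glycerolipid synthesis, at -0.40 ± 0.06 (kept in 2 of 6 fits), and DGAT2, which completes triglycerides, at -0.19 ± 0.04 (kept in 0 of 6).

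Bile acid genes held 2 calls among 19 tested (10.5%, beside 6.28% of all genes), both lower, with a median of -0.15. With housekeeping centring 0 were called higher and 7 lower, beside 1.71% and 16.9% of all genes. AKR1D1, the reductase that makes the 5-beta steroid ring of bile acids, was steady, at 8.16, 8.14 and 8.06 in RVX-208 arrays, against 8.64, 8.54 and 8.61 in DMSO arrays, a fall of 0.48 ± 0.05 log2 units. SLC51B, a subunit of the basolateral bile acid exporter, read 7.91, 7.65 and 7.71 in RVX-208 arrays, against 8.30, 8.29 and 8.15 in DMSO arrays, a fall of 0.49 ± 0.08 (kept in 2 of 6 fits). Several other members, among them CYP7A1 at a mean log2 signal of 4.46, lay in the dim range, and the median was -0.08 after cyclic loess.

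Targets of YAP and TGF-beta and genes of the matrix gave 4 calls of 18 tested (22.2%, beside 6.28% of all genes), all lower, with a median of -0.17 (-0.10 after cyclic loess). All RVX-208 arrays lay below all DMSO arrays for 11 of 18 (61.1%, beside 18.5% of all genes). TNS4, a tensin of focal adhesions, was steady at 8.78, 8.68 and 8.75 in RVX-208 arrays, against 9.29, 9.39 and 9.29 in DMSO arrays, a fall of 0.58 ± 0.06 log2 units (adjusted p = 0.00677). THBS1, the secreted matrix protein thrombospondin, was steady at 11.50, 11.55 and 11.42 in RVX-208 arrays, against 11.93, 12 and 11.93 in DMSO arrays, a fall of 0.47 ± 0.05. Both are bright genes, outside the range in which RVX-208 arrays read low. ANKRD1, a nuclear cofactor and YAP target, fell by 0.40 ± 0.06 (lost without DMSO replicate 3 or RVX-208 replicate 2, adjusted p up to 0.0581). CCN2, a matricellular growth factor, read 11.09, 11.12 and 11.17 in RVX-208 arrays, against 11.40, 11.44 and 11.38 in DMSO arrays, a fall of 0.28 ± 0.05 (kept in 1 of 6 fits).

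Other plasma protein genes gave few calls. Among 21 complement genes 0 were called by limma, and at an unadjusted p under 0.05 there were 0 higher and 3 lower. Among 19 genes of the acute phase and iron hormones limma also called 0, and 1 was higher and 2 lower at that unadjusted p. CFB, a complement protease, gave -0.60 ± 0.19 (adjusted p = 0.0908), the iron hormone HAMP -0.25 ± 0.08 (adjusted p = 0.0838), and the lectin MBL2 -0.23 ± 0.06 (adjusted p = 0.0649, called after cyclic loess). Of 25 coagulation genes 1 was called, the protease precursor F10 at 0.20 ± 0.05, and it was not called after cyclic loess. Of 17 tested hepatocyte transcription factors, ONECUT1 was called, at -0.26 ± 0.05 (kept in 0 of 6 fits). All RVX-208 arrays lay below all DMSO arrays for 10 of the 17 (58.8%, beside 18.5% of all genes), and the median was -0.11. After cyclic loess the median was -0.15, and 3 were called lower and 0 higher, beside 2.14% and 2.94% of all genes. Single members were lower in 2 further lists: SULT2A1, a sulphotransferase of steroids, at -0.23 ± 0.06 of 17 genes of other xenobiotic metabolism, and LIN28B, a repressor of let-7 miRNAs, at -0.35 ± 0.08 of 9 oncofetal liver genes. Each was kept in 0 of 6 fits.

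The remaining steady genes did not share 1 list. DHRS2, a mitochondrial short-chain dehydrogenase, had the lowest adjusted p of all genes, 4.69e-04, at 12.60, 12.66 and 12.65 in RVX-208 arrays, against 11.75, 11.80 and 11.77 in DMSO arrays (0.86 ± 0.05, 1.82-fold). KRCC1 read 6.73, 6.92 and 7.06 in RVX-208 arrays, against 5.88, 5.98 and 6.0 in DMSO arrays (0.95 ± 0.08). MYBL1, a transcription factor of the MYB family, read 8.45, 8.38 and 8.50 in RVX-208 arrays, against 7.68, 7.87 and 7.74 in DMSO arrays (0.68 ± 0.07). These 3 stayed called in every fit that left out 1 array, with estimates of 0.85 to 0.88 for DHRS2, 0.87 to 1.04 for KRCC1 and 0.64 to 0.74 for MYBL1. Further steady rises included STOX1, the sialyltransferase gene ST3GAL3, the phospholipase gene PNPLA8, the noncoding RNA LINC00467, the sulphurtransferase gene TST, the granzyme B inhibitor gene SERPINB9 and the histone chaperone gene ASF1B, at 0.52 to 0.65. SRP9, SLFN5, RPS28, ZNF43 and ZNF737 also stood among the 15 largest rises, at 0.65 to 0.78, and were kept in 1 to 4 of 6 fits.

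Steady falls were led by MAB21L3, at 6.65, 6.52 and 6.80 in RVX-208 arrays, against 7.43, 7.53 and 7.46 in DMSO arrays, a fall of 0.82 ± 0.08 log2 units (adjusted p = 0.00677). JAG1, a ligand of Notch receptors, read 10.59, 10.49 and 10.50 in RVX-208 arrays, against 11.12, 10.99 and 10.99 in DMSO arrays, a fall of 0.51 ± 0.06. CYP24A1, which inactivates vitamin D, read 10.39, 10.38 and 10.50 in RVX-208 arrays, against 10.89, 10.97 and 10.91 in DMSO arrays, a fall of 0.50 ± 0.06. Each pair of groups was apart by more than the range within either. The other steady falls included SH3TC2, the diacylglycerol kinase gene DGKK, FILIP1L, AIPL1, the chemokine receptor gene CCR6 and SGK1, a kinase induced by serum and glucocorticoids, at -0.63 to -0.44. LINC00652 had the largest fall of all called genes, 1.26 ± 0.26 log2 units, but varied among RVX-208 arrays (4.56, 5.53 and 4.70, against 6.58, 5.91 and 6.09 in DMSO arrays) and was kept in 1 of 6 fits.

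In lists of signalling, stress and the cell cycle, 0 to 3 members each were called, which was 0 to 13.6% of a list, beside 6.28% of all genes. Limma called 0 of 27 immediate early and MAPK feedback genes (2 higher and 5 lower at an unadjusted p under 0.05), 0 of 13 EGF family genes (0 and 3) and 0 of 13 heat shock genes (2 and 1). Of 21 NF-kB and cytokine genes, 2 were lower, the cytokine gene LIF at -0.59 ± 0.14 (not called after cyclic loess) and TNFAIP3, an inhibitor of NF-kB, at -0.30 ± 0.05. Of 23 interferon and antigen presentation genes, 2 were lower, MX1 at -0.40 ± 0.06 (not called after cyclic loess) and ISG15 at -0.28 ± 0.05. Among 22 genes of the unfolded protein and integrated stress responses, DNAJB9 and ATF4 were higher at 0.26 and 0.24 (ATF4 was not called after cyclic loess), and the cystine transporter SLC7A11 was lower at -0.38. Of 16 p53 targets and apoptosis regulators, the cell cycle inhibitor CDKN1A and the stress cytokine GDF15 were lower, at -0.30 and -0.22. Of 20 genes of DNA replication and the G1/S step, CCNE2 and CDC6 were higher at 0.29 and 0.22, and of 20 mitosis genes TTK and CENPE at 0.35 and 0.32; of these 4, CCNE2 alone was called after cyclic loess. The glucose transporter SLC2A2 and the hexokinase HK2 were lower, at -0.36 and -0.33, of 24 hypoxia and glycolysis genes. In the Wnt list the antagonist DKK1 was lower at -0.28 and the receptor LGR5 higher at 0.22 (not called after cyclic loess), of 15 genes. Each call in this paragraph was kept in 0 to 4 of the 6 fits without an RVX-208 or DMSO array. Over all fits without 1 array, estimates ran from -0.31 to -0.25 for DKK1 and from -0.74 to -0.42 for LIF.

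**Figure D5:**
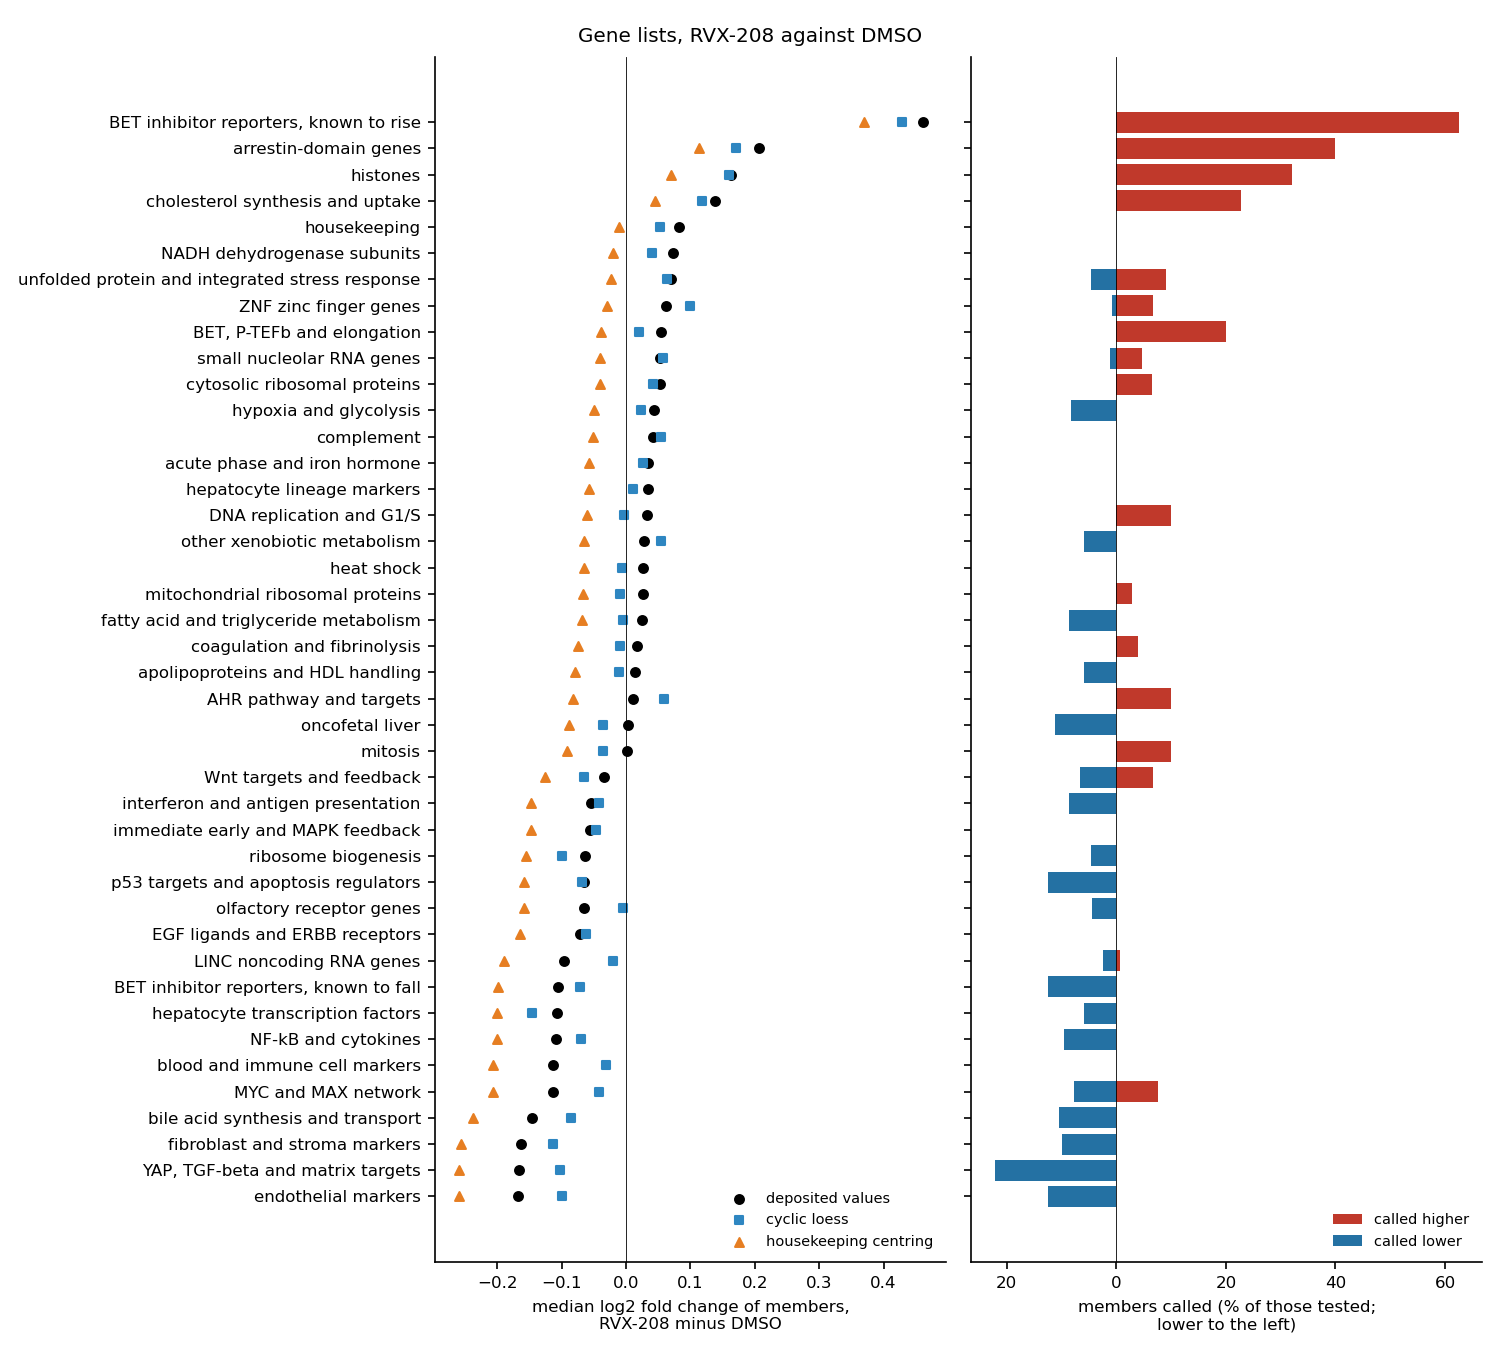
Median log2 fold change of each gene list, RVX-208 minus DMSO (left; circles for deposited values, squares for cyclic loess, triangles for housekeeping centring), and the percent of tested members called (right; red higher, blue lower). The list of genes known to rise under BET inhibition lies farthest to the right at 0.461. Triangles lie to the left of circles by the same shift in every list, as the centring lowers all genes equally.

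JQ1 values were set beside RVX-208 for the same genes. The DMSO arrays are shared by both comparisons and the doses differed, so the test of their own difference, RVX-208 minus JQ1, is given; it called 1952 genes (10.9%), 1209 of them with RVX-208 higher (6.78%) and 743 lower (4.16%). Without JQ1 replicate 1 or 2 it called 841 and 949, fits in which the lone JQ1 array is assumed to vary like the other groups, and without 1 RVX-208 array 1166 to 1268. Of the 546 genes called higher under RVX-208, 168 were lower under RVX-208 than under JQ1 and 15 were higher, and the median log2 fold change against DMSO was 0.32 for RVX-208 and 0.46 for JQ1. Of the 574 called lower, 113 were higher under RVX-208 than under JQ1 and 38 were lower, with medians of -0.31 for RVX-208 and -0.25 for JQ1. The other genes called in either direction did not pass the test of this difference. Both sets were picked by the RVX-208 test, which favours large RVX-208 differences, so the medians do not rank the compounds. HEXIM1 was at 0.48 against DMSO for RVX-208 and 1.49 for JQ1, a difference of -1.01 ± 0.06 (adjusted p = 1.21e-04). SGK1 fell by 0.44 with RVX-208 and 0.40 with JQ1, and the difference of -0.04 ± 0.06 (95% confidence interval -0.18 to 0.10) did not pass the test (adjusted p = 0.746).

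Some genes differed in sign, and the following were picked after their values were seen. CCN2 was -0.28 for RVX-208 and 0.51 for JQ1, and the compounds differed by -0.79 ± 0.06 (RVX-208 minus JQ1, adjusted p = 2.02e-04). IFT70B, which encodes a part of the ciliary transport complex, was 0.39 for RVX-208 and -0.36 for JQ1, a difference of 0.75 ± 0.07 (adjusted p = 5.90e-04; its rise against DMSO was kept in 2 of 6 fits). THBS1 was lower with both compounds, at -0.47 for RVX-208 and -0.22 for JQ1, and the difference of -0.25 ± 0.06 passed (adjusted p = 0.0277). CYP1A1, described above, had the widest gap of these.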

How the data were processed

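The authors deposited log2 values per probe set (transcript cluster), made with RMA in R 2.15.3 per the submitters' processing notes, which also name limma 3.14.4. The deposited authors' table of log2 fold changes with an F score and p-value was used only as a check: for RVX-208, its log2 fold change matched the difference between group means to within 1e-04 in 19816 of 19816 probe sets. The filter behind these probe sets is not given in the sources used here. Of them 17859 carried 1 gene symbol, 997 several and 960 none; 17835 gene IDs matched RefSeq names and 24 did not. For 14 genes with several probe sets the one with the highest mean was used, leaving 17845 genes.

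limma 3.58.1 in R 4.3.3 (lmFit, eBayes) fitted 1 mean per group over all 8 arrays, with 8.55 degrees of freedom, two-sided tests and Benjamini-Hochberg adjustment over all genes. The steps were tested on simulated data. Tables and plots used Python 3.11.15, pandas 2.3.3 and matplotlib 3.10.9. Errors are SE of the log2 fold change and intervals are 95%. The genes, the 35 lists (694 entries: 612 tested, 33 on shared probe sets, 49 not analysed here) and 7 families by name were chosen with earlier results of these data known. Named genes are the 15 largest rises and falls called on the deposited values and after cyclic loess, with groups apart on both and a log2 signal of at least 6 in the higher group, up to 3 called members each way per list, and 8 genes of interest set by hand; steady genes, uncalled list members and those set beside JQ1 were picked after their values were seen. Alternatives were cyclic loess, housekeeping centring, the 6 arrays alone, a variance trend, array weights, a signal minimum of 6, the replicate number as a block, and each array left out. Promoters are RefSeq windows of GRCh38.p14.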

Additional observations from a re-analysis of the deposited data

How the results depend on the processing

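Against the 1120 genes called (546 higher, 574 lower), cyclic loess called 905 (381 lower), housekeeping centring 3324 (306 higher, 3018 lower), a variance trend on signal 2248 (1268 higher, 980 lower), a signal minimum of 6, which left fewer genes to test, 2067 (1090 higher, 977 lower), and the 6 arrays alone, or the fit without either JQ1 array, 756 (366 lower). Array weights called 1485. Without 1 array the counts ran from 52 to 756 in all, 32 to 390 higher and 20 to 366 lower. After cyclic loess without 1 array, a combination chosen after seeing the data, they ran from 39 to 636, 26 to 391 and 13 to 245. In the fits without 1 JQ1 array the lone array is assumed to vary like the other groups, and for RVX-208 minus DMSO both equal the fit of 6 arrays. RVX-208 minus JQ1 called 1952 genes, and 841 to 1981 without 1 array. The cause of these shifts was not tested.

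Same-numbered RVX-208 and DMSO arrays did not deviate together on the deposited values (r of -0.0248, -0.0249 and -0.15), so the numbers were not taken as pairs. Those values still carry the departure with signal, in which replicate 3 of each group lay at opposite extremes, so they do not settle whether the numbers mark pairs. The replicate block called 80 genes (43 higher, 37 lower) for RVX-208 minus DMSO and 1050 for RVX-208 minus JQ1, with fewer degrees of freedom. Of the 94 named genes, 79 kept their side of the threshold after cyclic loess. The 15 largest rises and 15 largest falls among them had to be called on that scale, so for those the outcome was fixed. Of all 1120 calls, cyclic loess kept 731. Of the 94 named genes, 85 kept their side with housekeeping centring, 92 with array weights, 93 with a variance trend and 74 with 6 arrays. The replicate block kept 32, and the fit without RVX-208 replicate 3 kept 22. Without 1 array APOA1 ran from -0.062 (without DMSO replicate 2) to 0.843, and no other named gene reversed in any of these fits. With 3 arrays a group and no detection calls, changes of dim genes are compressed and the least certain.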

Other observations

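Genes of families picked by name alone gave further counts. Of 464 ZNF zinc finger genes, 31 were called higher and 4 lower, beside 3.06% and 3.22% of all genes. In all 7.54% were called, beside 6.28% of all genes, and the median log2 fold change was 0.06 (0.10 after cyclic loess). All RVX-208 arrays lay above all DMSO arrays for 126 of them (27.2%, beside 15.6% of all genes). They lay below for 34 (7.33%, beside 18.5% of all genes). With housekeeping centring the median was -0.03, beside -0.115 over all genes. On that scale 23 were higher and 28 lower, beside 1.71% and 16.9% of all genes. After cyclic loess 39 were called higher and 3 lower, beside 2.94% and 2.14% of all genes. There ZNF208, ZNF579 and ZNF671 had lost their lower call. ZNF737, ZNF43 and ZNF280C led the rises at 0.69, 0.65 and 0.59, and ZNF280C, the one steady member of the family, was kept in 6 of 6 fits that left out an RVX-208 or DMSO array. Of 172 small nucleolar RNA genes 8 were called higher and 2 lower, beside 3.06% and 3.22% of all genes (5.81% in all, beside 6.28%). After cyclic loess 10 were higher and 0 lower, beside 2.94% and 2.14% of all genes. With housekeeping centring 8 were higher and 10 lower, beside 1.71% and 16.9% of all genes. The rises included several SNORD116 copies, which resemble each other closely and may share signal. Among 62 cytosolic ribosomal protein genes 4 were called higher (6.45%) and 0 lower, beside 3.06% and 3.22% of all genes. These were RPS28 (0.66 ± 0.13), RPS3A (0.58), RPL12 (0.35) and RPS13 (0.21, not called after cyclic loess). All RVX-208 arrays lay above all DMSO arrays for 20 of the 62 (32.3%, beside 15.6% of all genes). They lay below for 3 (4.84%, beside 18.5% of all genes). Of 72 mitochondrial ribosomal protein genes 2 were higher (2.78%), of which MRPL58 was not called after cyclic loess, and of 32 NADH dehydrogenase subunit genes 0 were called by limma (6 higher and 0 lower at an unadjusted p under 0.05). Of 167 LINC noncoding RNA genes 1 was higher, LINC00467, and 4 lower (2.99%, beside 6.28% of all genes).

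Calls were also counted by gene type, beside 3.06% higher and 3.22% lower of all genes. Of 16560 protein coding genes, at a median log2 signal of 7.51, 528 were higher and 524 lower. Of 488 long noncoding RNAs, at 5.66, 4 were higher and 21 lower. Of 168 miRNA genes, at 4.46, 1 was higher and 11 lower. The 335 olfactory receptor genes, sensory receptors of the nose, had a median signal of 4.44. Of these, 0 were called higher and 15 lower on the deposited values (4.48%, beside 6.28% of all genes), and 2 higher and 7 lower after cyclic loess. Calls of all genes leaned lower in the dim range too, with 10 higher and 99 lower among 1785 genes at signals of 5.29 to 5.99. Whether gene type adds to this lean was not tested.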
